A study of Mus musculus with 9 samples.

Results

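The subject is the transcriptome of BV2 cells that received no particles, the non-treated control of a study of silica-coated cobalt ferrite nanoparticles. Its members are 3 libraries of the 9 in the series, chosen by their label. The other 6 libraries, from cells treated for 12 h at 0.01 or 0.1 µg/µl, were not used. BV2 is an immortalized mouse microglial line, a single line without a genetic contrast, and nothing in the labels says whether the 3 control libraries came from separate cultures, so the spread between them may be technical.

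Microglia are the resident macrophages of the brain. They need signalling through the CSF1 receptor and the transcription factor PU.1 (Spi1), and in healthy brain they carry a set of homeostatic genes such as P2ry12, Tmem119, Cx3cr1 and Sall1. Around damage, lipid debris or plaques microglia take on what is called the disease-associated profile, with Spp1, Gpnmb, Lpl and Apoe. BV2 cells were made with a retrovirus carrying the raf and myc oncogenes and divide without end in culture.

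Levels are in FPKM, fragments scaled by transcript length and by the number of mapped fragments, so that levels of genes of different length can be set side by side. A gene is called expressed where the mean of its 3 libraries is 1 FPKM or more, and low at a mean under 0.1 FPKM. The table holds 40993 genes, of which 11148 (27.2%) were expressed and 26912 (65.7%) were low. Among the 21310 protein-coding genes 9854 were expressed (46.2%) and 9984 were low (46.9%), and these shares are the background for each list below. The expressed protein-coding genes had a median level of 18.4 FPKM, with 803 at 100 FPKM or more and 22 at 1000 FPKM or more.

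The 3 libraries were alike in protein-coding genes. Pearson's r of log2(FPKM + 1) over the 9854 expressed protein-coding genes was between 0.993 and 0.994 for the 3 pairs, and the median coefficient of variation was 5.62%. These correlations are across genes, which are not independent replicates. Of the same genes, 123 (1.25%) had a highest library at least 2 times the lowest. The spread widened at low levels, with a median coefficient of variation of 35.3% for the 1472 genes between 0.1 and 1 FPKM. The files give no counts. From the steps between low values of genes with 1 transcript over 1500 nt, a depth of about 12.5, 13.3 and 14.3 M (mega) fragments was estimated, and 75.8%, 75.9% and 78.1% of the low values lay within 0.25 of a whole fragment, where values with no steps would give 50%. The depth was chosen as the one with the highest such share. That choice itself raises the share above 50%, and the depth is only approximate. At that approximate depth 3 fragments over the 3 libraries correspond to 0.0374 FPKM for a transcript of 2 kb, so a mean under 0.1 FPKM rests on a few fragments. Shorter transcripts have a higher floor. Over the list genes listed at 0 it had a median of 0.0426 FPKM and reached 0.25 FPKM, for Cd3d. Axl, Tyro3, Ass1, Cth and S100a9 were among other genes with a floor over 0.1 FPKM. For such genes a 0 cannot be told from a level just over the low cut-off. Some zeros may mean that no estimate was made: Rps27, which encodes a ribosomal protein that every cell uses, was listed at 0 in all 3 libraries, while its near-identical copy Rps27rt was listed at 1998, 1909 and 1339 FPKM. Genes at 0 are therefore called listed at 0.

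The labelled cell type was checked against its defining markers. Spi1, which encodes PU.1, was at 138, 134 and 137 FPKM in the 3 libraries. Csf1r, the receptor for CSF1 and IL-34, was at 138, 145 and 143 FPKM. Aif1, which encodes the microglial protein Iba1, was at 7.09, 6.3 and 6.22 FPKM. All 3 markers were expressed in every library, with Aif1 more than an order of magnitude under the others. In RNA of a whole culture, fewer cells that express a gene and less RNA per cell cannot be told apart, and this holds for every level given here.

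The highest protein-coding genes were Fth1, Spp1 and Ctsk. Fth1, the heavy subunit of ferritin, led all genes at 11074, 10384 and 9831 FPKM. Spp1, which encodes the secreted phosphoprotein osteopontin, followed at 5632, 5614 and 5379 FPKM. Ctsk, which encodes cathepsin K, a collagen-degrading protease best known from osteoclasts, was at 3401, 3299.9 and 3101 FPKM. For each of these genes the lowest library lay above the highest library of the next protein-coding gene in order, so the order Fth1, Spp1, Ctsk held in every library. Eef1a1, a translation elongation factor, stood at 2986 ± 61.5 FPKM (SD, n = 3). Atp5b, a subunit of ATP synthase, and Actb, cytoplasmic actin, came next at 2737 ± 209 and 2696 ± 78.4 FPKM, and their libraries overlapped.

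**Figure D1:**
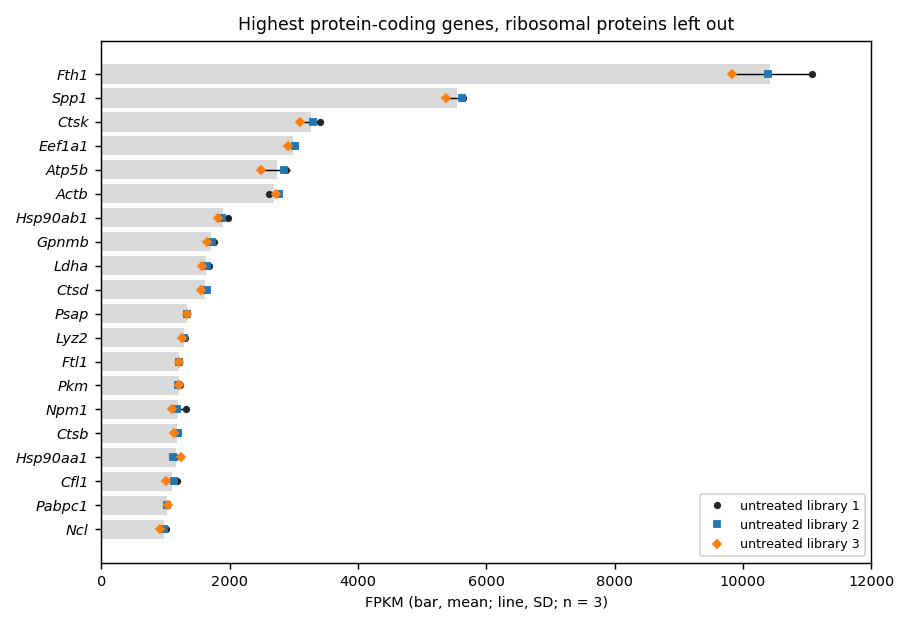
The 20 highest protein-coding genes other than those of ribosomal proteins in untreated BV2 cells, with FPKM on a linear axis from 0; bars are means, lines are SD and points are the 3 libraries. Fth1 stands apart at a mean of 10429.6 FPKM, and from Ftl1 to Cfl1 the libraries of neighbouring genes overlap.

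Among the 20 highest protein-coding genes that are not ribosomal, several encode lysosomal proteins. Gpnmb, a membrane glycoprotein of lysosomes and phagosomes, was at 1712 ± 51.2 FPKM and Ctsd, the lysosomal aspartic protease cathepsin D, at 1608 ± 52.4 FPKM. Psap, the precursor of the saposins that help to degrade sphingolipids, was at 1330.5 ± 9.46 FPKM. Lyz2, the lysozyme of macrophages, was at 1286 ± 22.8 FPKM, and Ftl1, the light ferritin subunit, at 1211 ± 3.23 FPKM. Ctsb, cathepsin B, was at 1172 ± 34.2 FPKM. The set also held the glycolytic genes Ldha and Pkm, the chaperones Hsp90ab1 and Hsp90aa1, the nucleolar genes Npm1 and Ncl, the actin-severing cofilin gene Cfl1 and the poly(A)-binding protein gene Pabpc1, between 969.6 and 1893 FPKM. From Ftl1 down to Cfl1 each gene's libraries overlapped those of its neighbour, so their order is not resolved.

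The ranking over all biotypes also contains entries that rest on 1 library. Of the 20 highest means, 6 belong to snRNA genes, and each was at 0 in 2 of the 3 libraries: Gm24242 and Gm24967 were at 7914 and 7595 FPKM in library 1, and Gm23148, Gm25327, Gm25794 and Gm25312 were between 5964 and 6066 FPKM in library 2. Summed over all snRNA genes the libraries held 15605, 24082 and 970 FPKM. No protein-coding gene showed this pattern: among those listed at 0 in a library, the highest value in another was 2.33 FPKM. Pseudogenes Gm4617 and Gm4149 were at 3977 ± 304 and 2897 ± 343 FPKM. Gm4617 shares 93.4% of its 30-base words with transcripts of Ptma, which was itself at 581 ± 75.1 FPKM, so the level of either is uncertain.

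Some promoters are shown before the lists are taken up. They set genes of the macrophage program beside genes of the same program that were low or, for P2ry12, just over 0.1 FPKM. A gene of cell division is set beside them. Each is the RefSeq promoter (GRCm38.p6) from 250 bases before to 50 bases after the annotated start, written along the gene's own strand. In the first set capitals mark the word GAGGAA on either strand (TTCCTC on the other), which contains the core GGAA bound by PU.1 and its relatives, and positions count from 1 at the 5′ end of the window. Ctsk (chr3:95498960-95499259, plus strand) holds it at positions 18 and 193, Trem2 (chr17:48346151-48346450, plus strand) at 211, C1qb (chr4:136886151-136886450, minus strand) at 221, and Cd68 (chr11:69666121-69666420, minus strand) at 26 and 280. Siglech (chr7:55767934-55768233, plus strand), listed at 0, also holds it, at 247. P2ry12 (chr3:59262936-59263235, minus strand) and Cx3cr1 (chr9:120068247-120068546, minus strand) do not hold these letters, though both windows hold the shorter core GGAA (or TTCC), as do 95.7% of all windows. The word GAGGAA was no commoner at high levels. It was in 26.0% of windows of genes at 100 FPKM or more, 27.7% of those of low genes and 27.2% of all.
Ctsk: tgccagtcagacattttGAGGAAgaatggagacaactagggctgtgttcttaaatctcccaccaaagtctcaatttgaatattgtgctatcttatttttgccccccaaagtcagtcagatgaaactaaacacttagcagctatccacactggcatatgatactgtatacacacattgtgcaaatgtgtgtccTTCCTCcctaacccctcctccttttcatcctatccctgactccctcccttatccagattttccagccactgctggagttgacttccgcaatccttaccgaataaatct
Trem2: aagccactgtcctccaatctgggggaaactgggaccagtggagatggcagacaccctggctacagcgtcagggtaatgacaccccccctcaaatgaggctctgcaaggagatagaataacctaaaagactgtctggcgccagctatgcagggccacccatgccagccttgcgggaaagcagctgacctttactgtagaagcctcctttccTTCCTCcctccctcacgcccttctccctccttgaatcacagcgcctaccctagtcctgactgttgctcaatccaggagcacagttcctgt
C1qb: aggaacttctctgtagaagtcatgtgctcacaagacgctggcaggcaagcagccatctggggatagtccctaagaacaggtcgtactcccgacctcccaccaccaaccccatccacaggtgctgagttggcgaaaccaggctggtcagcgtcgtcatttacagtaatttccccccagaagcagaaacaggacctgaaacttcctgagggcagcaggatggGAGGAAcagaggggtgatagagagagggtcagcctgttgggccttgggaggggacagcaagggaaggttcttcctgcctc
Cd68: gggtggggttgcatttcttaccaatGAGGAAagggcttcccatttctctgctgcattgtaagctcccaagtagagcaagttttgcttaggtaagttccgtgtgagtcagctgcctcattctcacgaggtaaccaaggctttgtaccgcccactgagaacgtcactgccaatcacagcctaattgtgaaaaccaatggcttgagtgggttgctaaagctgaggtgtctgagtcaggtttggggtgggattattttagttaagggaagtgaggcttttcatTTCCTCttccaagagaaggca
Siglech: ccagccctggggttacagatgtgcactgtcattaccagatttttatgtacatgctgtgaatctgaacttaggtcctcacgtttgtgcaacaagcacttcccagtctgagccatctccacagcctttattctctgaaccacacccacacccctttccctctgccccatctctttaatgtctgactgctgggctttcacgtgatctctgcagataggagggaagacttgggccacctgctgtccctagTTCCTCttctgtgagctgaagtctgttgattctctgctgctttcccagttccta
P2ry12: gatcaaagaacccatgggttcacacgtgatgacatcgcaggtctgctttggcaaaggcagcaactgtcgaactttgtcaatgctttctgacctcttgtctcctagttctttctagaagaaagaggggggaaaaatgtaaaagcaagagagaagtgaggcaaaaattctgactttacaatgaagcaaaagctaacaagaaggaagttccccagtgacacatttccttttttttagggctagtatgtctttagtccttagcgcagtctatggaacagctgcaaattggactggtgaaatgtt
Cx3cr1: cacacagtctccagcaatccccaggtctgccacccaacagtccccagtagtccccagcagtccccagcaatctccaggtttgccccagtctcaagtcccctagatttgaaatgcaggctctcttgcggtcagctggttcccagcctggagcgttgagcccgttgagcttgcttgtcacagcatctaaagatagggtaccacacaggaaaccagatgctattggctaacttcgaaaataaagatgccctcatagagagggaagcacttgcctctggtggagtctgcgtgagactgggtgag

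For comparison, the promoter of Pcna, the sliding clamp of DNA replication (chr2:132253131-132253430, minus strand), is printed with each CG dinucleotide in capitals. It holds 26 of them, against 2 in the Ctsk window, 4 in that of Cd68, 5 in that of Trem2 and 6 in that of C1qb. All of these genes had a mean of more than 100 FPKM, so a high level went with both kinds of window.
Pcna: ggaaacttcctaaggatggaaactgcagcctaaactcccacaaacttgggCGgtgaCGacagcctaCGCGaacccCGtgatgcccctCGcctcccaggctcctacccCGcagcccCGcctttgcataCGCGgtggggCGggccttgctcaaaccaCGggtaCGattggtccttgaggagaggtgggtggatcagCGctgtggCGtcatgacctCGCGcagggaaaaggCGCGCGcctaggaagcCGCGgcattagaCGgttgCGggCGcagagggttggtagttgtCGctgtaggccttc

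General macrophage genes were nearly all expressed. Of 25 genes in the list, 24 were expressed (96.0%) and none was low, with a median of 202 FPKM, beside 0.278 FPKM over all protein-coding genes. Cd68, a lysosomal glycoprotein of phagocytes, was at 465, 420.5 and 378 FPKM. Adgre1, which encodes the macrophage antigen F4/80, was at 199, 208 and 200.4 FPKM and Cybb, the catalytic subunit of the phagocyte oxidase, at 208, 228 and 214 FPKM. The adaptor genes Tyrobp and Fcer1g, which carry the signals of Trem2 and of Fc receptors, were at 266 ± 46.4 and 251 ± 18.5 FPKM, and Ptprc, which encodes the leukocyte antigen CD45, at 73.9 ± 0.524 FPKM. Itgam, the integrin alpha chain CD11b, was at 61.9 ± 3.48 FPKM. The 2 lowest members were Aif1 and Lyz1, the lysozyme of Paneth cells, at 0.208, 0.189 and 0.50 FPKM.

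The homeostatic microglia list split. Of 29 members, 16 were expressed (55.2%) and 9 were low (31.0%). The expressed share was near the background of protein-coding genes, 46.2%, of which 46.9% were low. Genes shared with other macrophages were among those expressed highest. Ctss, the protease cathepsin S, was at 289, 273 and 267 FPKM, and Trem2, a receptor for lipids and apoptotic cells, at 139, 142 and 119 FPKM. The 3 chains of the complement starter C1q were unequal, with C1qb at 198, 201 and 187 FPKM, C1qc at 86.9, 85.2 and 77.8 FPKM and C1qa at 7.27, 8.46 and 7.17 FPKM, and the order was the same in every library.

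The genes that set microglia apart from other macrophages were near or under the cut-offs. Tmem119, a membrane protein of brain microglia, was expressed at 2.32, 2.35 and 2.05 FPKM. P2ry12, the ADP receptor that steers microglial processes, was at 0.102, 0.135 and 0.126 FPKM. Cx3cr1, the receptor for the neuronal chemokine fractalkine, was at 0.0773, 0.0172 and 0.0227 FPKM. Fcrls and Olfml3 were at 0.0636 ± 0.0347 and 0.121 ± 0.056 FPKM, and Gpr34, a lysophosphatidylserine receptor, at 0.139 ± 0.0499 FPKM. Sall1, a zinc finger regulator of microglial identity, was listed at 0 in all 3 libraries, and so were Siglech, Sparc and Ltc4s. Its relative Sall3 was at 2.7, 2.71 and 2.9 FPKM. The plot of microglial genes by library shows a continuous fall from Ctss to Tmem119, a step down to P2ry13 at 0.444 FPKM, and then values at the level of single fragments, where the libraries scatter.

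**Figure D2:**
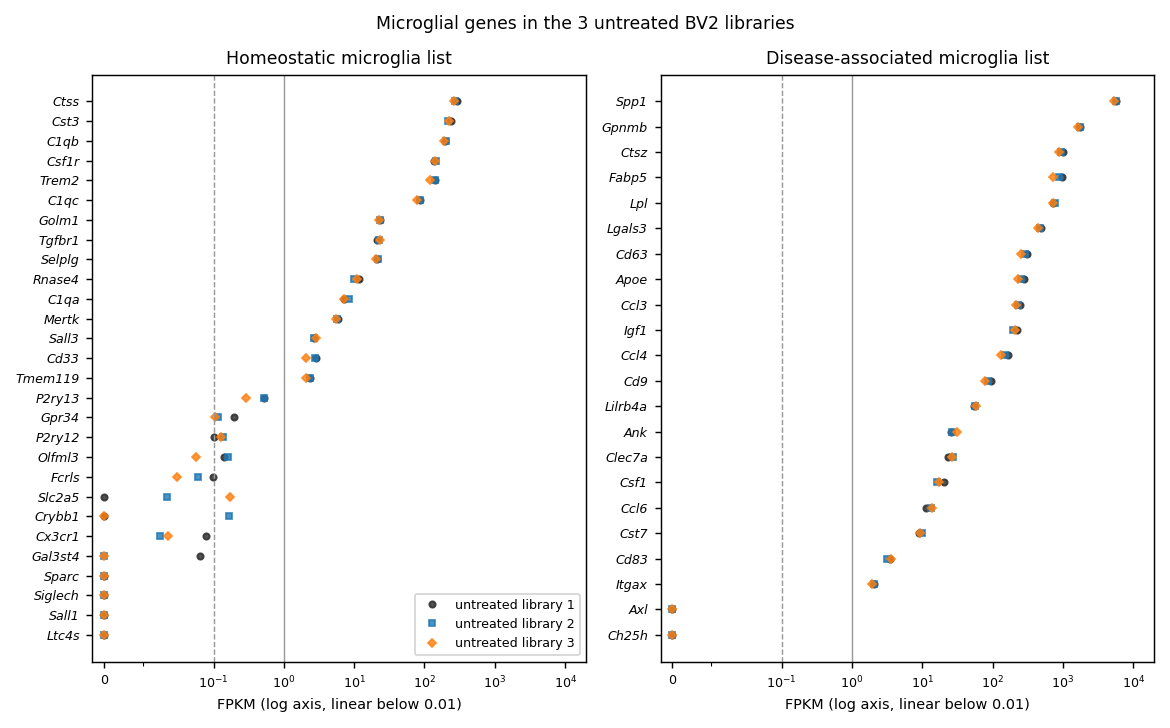
FPKM of the homeostatic (left) and disease-associated (right) microglia lists in the 3 untreated libraries, on a log axis that is linear below 0.01; the solid line marks 1 FPKM and the broken line 0.1 FPKM. Of the genes plotted, 15 of 28 in the left list have a mean of at least 1 FPKM, as do 20 of 22 in the right list.

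Disease-associated genes were present in untreated cells. Of 22 members, 20 were expressed (90.9%), with a median of 118 FPKM. Besides Spp1 and Gpnmb, Lpl, the lipase that releases fatty acids from lipoproteins, was at 734, 761 and 715 FPKM and Fabp5, a fatty acid carrier, at 976, 866 and 717 FPKM. Apoe, the apolipoprotein that exports cholesterol, was at 283, 257 and 231 FPKM, and Lgals3, galectin-3, at 490.1, 476 and 447 FPKM. The growth factor gene Igf1 was at 207 ± 14.1 FPKM and Clec7a, the beta-glucan receptor Dectin-1, at 26 ± 2.15 FPKM. Itgax, the integrin alpha chain CD11c, was expressed at a low 2.01 ± 0.0633 FPKM. Axl, a receptor kinase for apoptotic cells, and Ch25h, cholesterol 25-hydroxylase, were the 2 members listed at 0.

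Genes of border-associated macrophages, monocytes and tissue macrophages were mostly low, with 15 of 26 under 0.1 FPKM (57.7%) and 8 expressed (30.8%). The expressed members included Fabp4, a fatty acid carrier of macrophages and adipocytes, at 324, 318 and 285 FPKM, and Pf4, a platelet and macrophage chemokine, at 225, 185 and 177 FPKM. Marco, a scavenger receptor for particles and bacteria, was at 93.8, 103 and 94.1 FPKM and Mrc1, the mannose receptor, at 42.8, 45 and 44.5 FPKM. Ccr2, the chemokine receptor of inflammatory monocytes, was at 0, 0 and 0.0296 FPKM. Ly6c1, Ly6c2, Cd163, Timd4, Clec4f and Gata6, which mark monocytes or macrophages of particular organs, were listed at 0.

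Myeloid transcription factor genes were expressed in 36 of 46 cases (78.3%). Irf8 was also on the list but had no match, so it is not counted and its level is not given. Besides Spi1, Zeb2 was at 80.2 ± 1.09 FPKM, Mef2d at 72.7 ± 0.628 FPKM, and Irf5 at 38.3 ± 0.828 FPKM. Runx1, a factor of blood cell development, was at 43.8, 40.7 and 27 FPKM, with library 3 below the others. The immediate early gene Egr1 was low, at 0, 0 and 0.0239 FPKM, while Klf6 stood at 59.6 ± 1.44 FPKM. Gata1 and Gata2, factors of erythroid and mast cells, were low, and Gata3, a T cell factor, was at 3.15, 2.7 and 2.84 FPKM.

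**Figure D3:**
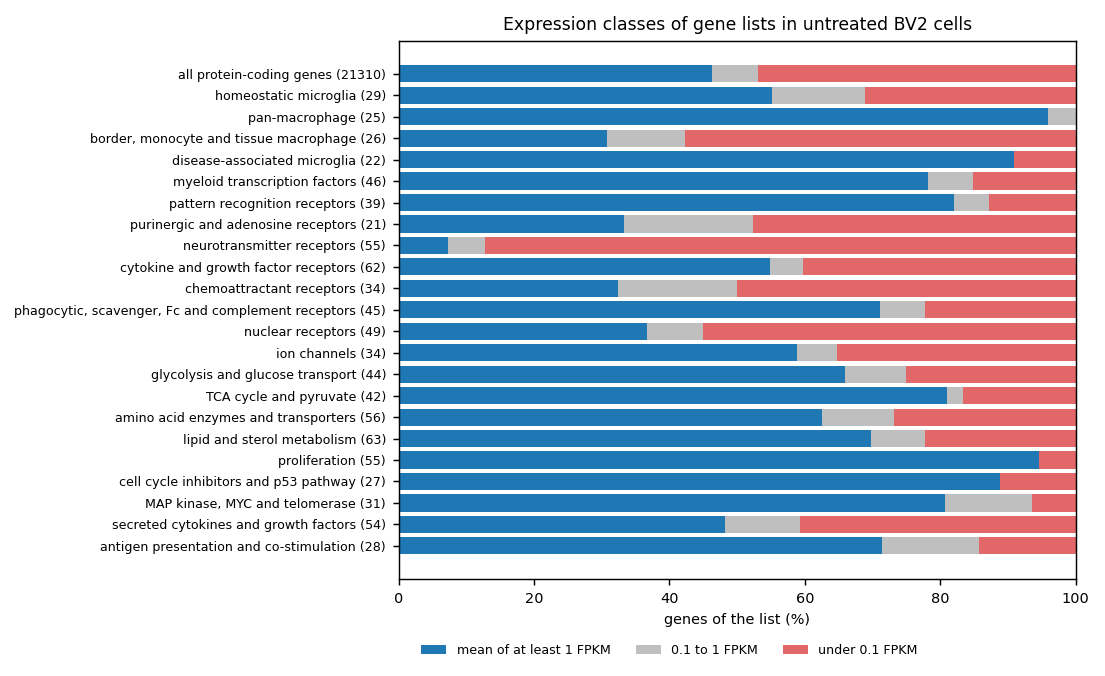
Shares of each gene list that were expressed (at least 1 FPKM), intermediate, or low (under 0.1 FPKM) in untreated cells, with the number of genes in brackets and all protein-coding genes at the top. The pan-macrophage, disease-associated and proliferation lists have expressed shares over 90%, and neurotransmitter receptors 7.27%.

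Receptors for microbial products were broadly expressed, in 32 of 39 cases (82.1%). Within the Toll-like receptors, Tlr2, which senses lipoproteins, held the largest share of the family's summed FPKM, 23.8% ± 0.433 (SD, n = 3 libraries). Tlr7, a sensor of single-stranded RNA, held 17.6% ± 0.651, Tlr1 16.2% ± 0.554, Tlr13 14.8% ± 0.313 and Tlr4, the receptor for lipopolysaccharide, 14% ± 1.19. Tlr3 and Tlr5, sensors of double-stranded RNA and flagellin, were low at 0, 0.068 and 0.0852 and 0, 0.167 and 0.0467 FPKM. The lipopolysaccharide co-receptor gene Cd14 was at 74.5 ± 1.8 FPKM and Ly96, which encodes MD-2, at 11.6 ± 2.16 FPKM.

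The inflammasome genes were uneven. Aim2, a DNA sensor, was at 52.2, 50.2 and 48.4 FPKM, Nlrp3 at 11.4, 8.71 and 7.18 FPKM and Casp1, the protease that matures IL-1 beta, at 24.7, 23.2 and 21.3 FPKM. Pycard, which encodes the adaptor ASC that joins these sensors to the protease, was at 0.0595, 0.108 and 0 FPKM, under the 0.1 cut-off. Il1b itself was at 1.11, 0.555 and 0.687 FPKM and Il18 at 0.575, 1.36 and 1.71 FPKM. Ifih1, which encodes the RNA sensor MDA5, was listed at 0, while Rigi, its relative, was at 1.5, 2.47 and 2.69 FPKM.

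The purinergic list holds receptors for ATP, other nucleotides and adenosine together with 2 ectoenzymes, and 7 of its 21 genes were expressed (33.3%). Of the 19 receptors alone, 6 were expressed. The ion channel genes P2rx4 and P2rx7 stood at 32.9, 31.4 and 32.4 and 31.3, 30.7 and 30.5 FPKM and together made up nearly the whole P2X family, with 50.7% ± 0.455 and 48.5% ± 0.592. P2ry2 was at 16 ± 0.299 FPKM and P2ry6, the UDP receptor, at 1.13 ± 0.204 FPKM. Entpd1, the enzyme CD39 that degrades ATP, was at 4.14, 3.55 and 7.63 FPKM and Nt5e, the enzyme CD73 that makes adenosine, at 0, 0 and 0.0172 FPKM.

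Neurotransmitter receptors were low in 48 of 55 cases (87.3%), 41 of them listed at 0. All AMPA receptor genes, all GABA-A and GABA-B receptor genes and the metabotropic glutamate receptor genes of the list were at 0, as was Grin1, the obligatory NMDA receptor subunit. Among the 4 genes that were expressed, Adra1a, an alpha-1 adrenergic receptor, was at 14, 14.7 and 15.1 FPKM. Hrh1, a histamine receptor, was at 1.87, 1.78 and 1.99 FPKM and Cnr2, the cannabinoid receptor of immune cells, at 1.49, 1.28 and 1.59 FPKM.

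Cytokine and growth factor receptors were expressed in 34 of 62 cases (54.8%), near the background of protein-coding genes. Kdr, the VEGF receptor 2 of endothelial cells, was the second highest member at 65.1, 65.3 and 66.7 FPKM, after Csf1r. Flt1, VEGF receptor 1, was at 22.4, 22.5 and 22.9 FPKM, the co-receptor genes Nrp2 and Nrp1 at 112 ± 3.3 and 34.6 ± 1.67 FPKM, and Flt4, VEGF receptor 3, was listed at 0. Both TNF receptor genes were expressed, Tnfrsf1b at 64 ± 3.77 FPKM and Tnfrsf1a at 33.9 ± 1.84 FPKM. The interferon receptor genes Ifnar1, Ifnar2, Ifngr1 and Ifngr2 lay between 14 and 35 FPKM. Of the TGF-beta receptors, which maintain microglial identity in brain, Tgfbr1 was at 22.3 ± 1.05 FPKM and Tgfbr2 at 6.38 ± 0.311 FPKM. Il1r1, the signalling receptor for IL-1, was at 0.178, 0.145 and 0.204 FPKM.

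Chemoattractant receptors were expressed in 11 of 34 cases (32.4%). The complement receptors led, with C3ar1 at 103, 102 and 98 FPKM and C5ar1 at 37.9, 36.6 and 35.9 FPKM, followed by the sphingosine phosphate receptor gene S1pr2 at 23.6, 24.7 and 24.8 FPKM. Among chemokine receptors Cxcr4 was at 5.12, 6.03 and 5.13 FPKM and Ccr1 at 0.289, 0.386 and 0.483 FPKM. Ccr6, Ccr7, Ccr8, Cxcr2 and Ackr3 were listed at 0.

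Phagocytic, scavenger, Fc and complement receptors were expressed in 32 of 45 cases (71.1%). Sirpa, the receptor for the signal CD47, was at 210.1 ± 6.33 FPKM and Cd36, which binds oxidized lipids, at 137 ± 2.24 FPKM. Lrp1, Colec12 and Scarb1 were at 108 ± 4.97, 100.4 ± 3.71 and 80.0 ± 5.83 FPKM. All 4 Fc gamma receptor genes were expressed, with Fcgr3 at 50.2% ± 1.39 of their sum, Fcgr1 at 24.9% ± 0.183, Fcgr2b, the inhibitory receptor, at 19.3% ± 1.22 and Fcgr4 at 5.57% ± 0.351. Of the 3 TAM kinases for apoptotic cells, Mertk was at 5.85, 5.72 and 5.57 FPKM, and Axl and Tyro3 were listed at 0.

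Ion channel genes were expressed in 20 of 34 cases (58.8%). Kcnj2, an inward rectifier potassium channel, was at 46 ± 1.98 FPKM and Kcnn4, a calcium-activated potassium channel, at 27.3 ± 1.02 FPKM. Hvcn1, the proton channel of phagocytes, was at 13.8 ± 1.08 FPKM and Kcnk13, a microglial tandem-pore potassium channel, at 8.33 ± 0.133 FPKM. Nuclear receptor genes were expressed in 18 of 49 cases (36.7%). Rxra and Rxrb were at 60.9 ± 2.57 and 38.7 ± 3.65 FPKM and the oxysterol receptors Nr1h2 and Nr1h3 at 22.8 ± 0.471 and 11.9 ± 0.562 FPKM, whereas Pparg was low at 0.137, 0.0415 and 0.0406 FPKM.

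In several steps of glycolysis 1 isozyme gene held most of the FPKM. Ldha, the lactate dehydrogenase chain that favours lactate, was at 1675, 1652 and 1574 FPKM, while Ldhb and Ldhc were listed at 0. Aldoa held 97.5% ± 0.0558 of aldolase FPKM and Eno1 95.4% ± 0.512 of enolase FPKM. Pkm was at 1222, 1198 and 1212 FPKM. Hexokinase was shared by Hk3 at 46.3% ± 0.865, Hk2 at 43% ± 0.527 and Hk1 at 10.8% ± 0.593, and Hk3 and Hk2 were 76.2 and 70.7 FPKM. The glucose transporter gene Slc2a1 held 89.7% ± 2.0 of its family, and Slc2a5, the fructose transporter found on brain microglia, was at 0, 0.0216 and 0.169 FPKM. Slc16a1, a lactate carrier, was at 142 ± 2.6 FPKM and Slc16a3, another, at 0.0888, 0.0732 and 0.554 FPKM. Over the list 29 of 44 genes were expressed (65.9%).

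**Figure D4:**
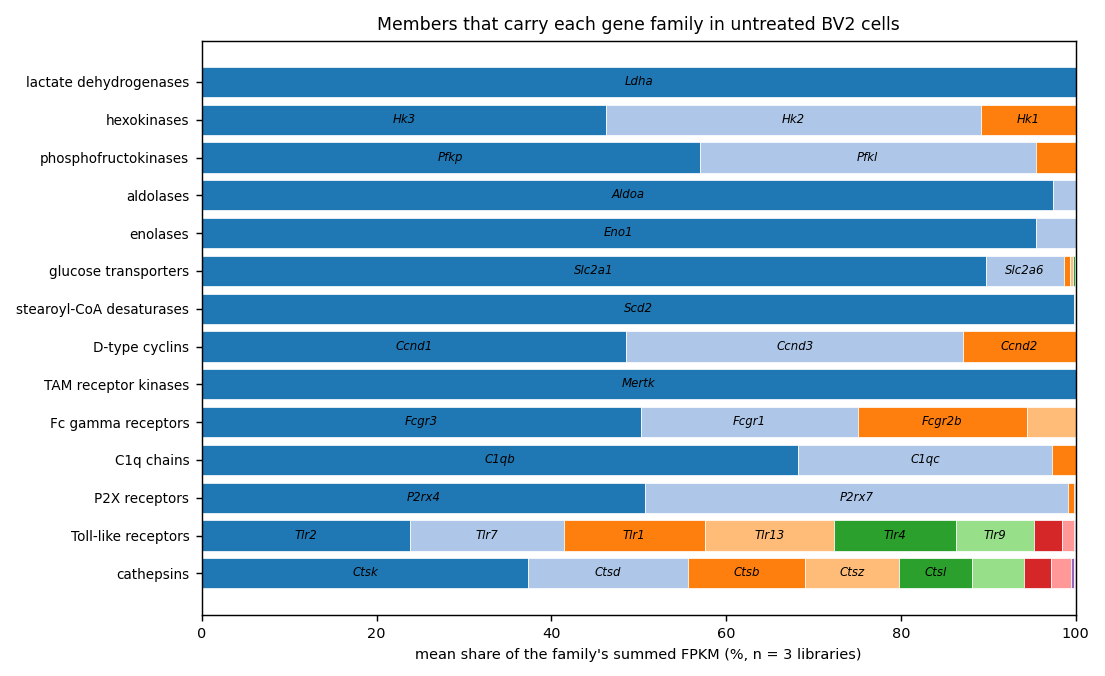
Mean share of each member in the summed FPKM of its gene family over the 3 untreated libraries; members over 7% are named. Scd2 takes nearly the whole stearoyl-CoA desaturase bar, and Ldha and Mertk fill theirs because the other members are listed at 0, which may be missing estimates, while Toll-like receptors and cathepsins are spread over many.

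Gapdh, the glycolytic gene often used as a reference, was at 32, 29.3 and 26.7 FPKM, far under the neighbouring steps Aldoa and Tpi1 at 833 and 436 FPKM. In the reference annotation 134 other genes share words with Gapdh transcripts, and their summed level was 42.4 ± 1.64 FPKM. Ppia was likewise low at 11 ± 0.749 FPKM, and the 25 genes that share words with it summed to 327 ± 13.8 FPKM. Of that sum the pseudogene Gm10123 held 259.7 FPKM. The protein-coding gene Gclm, which shares only 30.6% of its words, held 62.2 FPKM, so the sum is not one of near copies alone. Levels of genes with near copies, such as Gapdh and Ppia, are uncertain. The part of read sharing in the low level of Gapdh was not tested.

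The tricarboxylic acid cycle and pyruvate list was expressed in 34 of 42 cases (81.0%). Mdh2 was at 375 ± 7.76 FPKM, Sdha at 326 ± 2.76 FPKM, Cs, citrate synthase, at 146 ± 3.99 FPKM, and Acly, which makes acetyl-CoA for lipid synthesis, at 215 ± 4.07 FPKM. Acod1, which makes itaconate in activated macrophages, was at 43.5, 42.2 and 41.3 FPKM in these untreated cells. Of the pyruvate dehydrogenase kinases Pdk1 was at 75.7 ± 2.34 FPKM and Pdk4 was listed at 0, and the gluconeogenic genes Pck1 and Fbp1 were listed at 0. The deposited values hold no gene of the mitochondrial chromosome, so the mitochondrially encoded genes could not be analysed.

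Amino acid genes were expressed in 35 of 56 cases (62.5%). The serine synthesis genes Psat1 and Phgdh were at 348, 353 and 353 and 90.3, 88.9 and 90.5 FPKM, with Psph at 7.77, 7.25 and 6.78 FPKM. Srr, the racemase that makes D-serine from L-serine, was at 3.29, 3.49 and 3.8 FPKM, and Dao, which degrades D-serine, at 0, 0 and 0.0482 FPKM. In arginine metabolism Nos2, the inducible nitric oxide synthase, was at 2.55, 3.03 and 3.1 FPKM and Arg1 at 5.41, 3.68 and 3.74 FPKM. Ass1, which makes arginine from citrulline together with Asl, was listed at 0, whereas Asl was at 22, 21.3 and 21 FPKM. The transsulfuration genes Cbs and Cth were listed at 0.

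Lipid genes were expressed in 44 of 63 cases (69.8%). Scd2 held 99.8% ± 0.0427 of the stearoyl-CoA desaturases, at 740.3, 784 and 809.8 FPKM, and Scd1 was at 0.454, 0.68 and 0.233 FPKM. Sterol synthesis was represented by Hmgcs1 at 152 ± 3.95 FPKM, Sqle at 138 ± 6.09 FPKM and Dhcr7 at 46.7 ± 2.86 FPKM. In fatty acid desaturation Fads1 was at 83.8 ± 4.33 FPKM and Fads2 was listed at 0. Soat1, which stores cholesterol as esters, was at 341, 371 and 395 FPKM and Abca1, which exports it, at 39.7, 41.3 and 42.4 FPKM.

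Cell division genes were almost all expressed, in 52 of 55 cases (94.5%), at a median of 53.1 FPKM. Mki67, the proliferation antigen, was at 70.5, 72 and 70.2 FPKM, Top2a at 128, 124 and 129 FPKM and Cdk1 at 190.3, 194 and 184 FPKM. The replication helicase genes Mcm2 to Mcm7 lay between 69.8 and 196 FPKM. The D-type cyclins were shared among Ccnd1 at 48.6% ± 1.42, Ccnd3 at 38.6% ± 1.54 and Ccnd2 at 12.9% ± 0.157 of their sum. E2f3 was at 45.9, 15.5 and 30.5 FPKM, with library 2 well under the others. The 3 members listed at 0 were Ccna1, Ccnb3 and E2f7, of which Ccna1 and Ccnb3 belong mainly to germ cells.

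The list of cell cycle inhibitors and p53 pathway genes was expressed in 24 of 27 cases (88.9%). It also holds Mdm4 and Mdm2, which restrain p53, at 53.8 ± 1.98 and 34.5 ± 0.621 FPKM. Trp53 was at 107, 106 and 102 FPKM, Cdkn2a, whose locus encodes p16INK4a and p19ARF, at 42.3, 39.4 and 42.2 FPKM, Cdkn1a at 17.8, 19.9 and 17.9 FPKM and Rb1 at 7.09, 7.57 and 7.26 FPKM. Gene levels do not separate the products of Cdkn2a. The cellular gene Myc was at 2.03, 2.15 and 2.11 FPKM and Mycn and Mycl were listed at 0, while Max, its partner, was at 108 ± 3.69 FPKM. Araf and Braf were at 58.6 ± 6.05 and 14.9 ± 0.84 FPKM, and RNA of the retroviral oncogenes was not analysed here. The ERK-induced genes Dusp4, Etv5 and Dusp6 stood at 70.9 ± 1.39, 22.3 ± 0.228 and 13.6 ± 1.09 FPKM. The other Dusp, Etv and Spry genes listed were lower. Spry2, Dusp5 and Etv4 were at 7.64 ± 0.451, 5.87 ± 0.713 and 1.66 ± 0.33 FPKM. Spry1 and Spry4 were not expressed, at 0.803 ± 0.15 and 0.107 ± 0.0361 FPKM.

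Secreted factors were expressed in 26 of 54 cases (48.1%), near the background. After Spp1, Grn, the gene of progranulin, was at 751, 803 and 737 FPKM, and Igf1 was given above. Among the chemokine genes of this list Ccl3, Ccl4 and Ccl2 were highest, at 246, 228 and 217, 164, 152 and 133 and 159, 161 and 126 FPKM. Tnf was at 29.6, 25.3 and 30.2 FPKM and Il1rn, the IL-1 receptor antagonist, at 32.4, 32.1 and 35.2 FPKM. Tgfb1 held 99.9% ± 0.097 of TGF-beta ligand FPKM at 46.6 ± 2.27 FPKM. Il6 was at 0.497, 0.707 and 0.413 FPKM and Il10 at 0, 0.204 and 0 FPKM, and Ifnb1, Il12a, Il12b, Cxcl1 and Bdnf were listed at 0.

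For antigen presentation, 20 of 28 genes were expressed (71.4%), but the class II chains were not among them. The class I genes B2m and H2-D1 were at 817, 699 and 679.8 and 198, 199 and 195 FPKM. H2-Aa, H2-Ab1 and H2-Eb1, the class II chains, were listed at 0, and Ciita, their master regulator, was at 0.0117, 0 and 0.0331 FPKM. Cd74, the invariant chain that accompanies class II, was at 4.28, 4.64 and 3.29 FPKM. Cd86 and Cd80, co-stimulatory ligands, were at 16.5 ± 1.68 and 5.65 ± 0.75 FPKM.

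Markers of other cell types were checked in 12 lists holding 120 genes, of which 88 were low, 58 of these listed at 0, and 16 were expressed. Summed levels were 0.0760 ± 0.0930 FPKM for fibroblasts, 0.126 ± 0.0480 FPKM for epithelium, 0.496 ± 0.169 FPKM for mast cells and basophils and 4.33 ± 0.230 FPKM for neurons, where Syn1 held nearly all. They were 12.6 ± 0.728 FPKM for the oligodendrocyte lineage, 21.5 ± 1.46 FPKM for dendritic cells, nearly all in Batf3, and 22.1 ± 0.736 FPKM for astrocytes, nearly all in Aldoc, an aldolase. Larger sums were 38.5 ± 7.28 FPKM for neutrophils, 58.2 ± 2.65 FPKM for T and NK cells, 59.96 ± 1.23 FPKM for B and plasma cells and 90.2 ± 2.45 FPKM for endothelium and mural cells. The erythroid and megakaryocytic sum was 197 ± 25.4 FPKM, nearly all in Pf4, which macrophages also express. In the endothelial and mural list 4 of 10 genes were expressed, and in each of the other lists at most 3. Among T cell genes Cd28 was at 54.7, 53.8 and 57.5 FPKM while Cd3d, Cd3e and Cd3g were listed at 0. Kdr was accompanied by Egfl7 at 18 ± 1.54 FPKM and Vwf at 4.88 ± 0.406 FPKM, with Cdh5 at 0.0482, 0.0294 and 0.0895 FPKM and Cldn5 listed at 0. S100a8, a calcium-binding protein of neutrophils, was at 32.6, 19.7 and 19.8 FPKM and its partner S100a9 was listed at 0. Sdc1, a plasma cell antigen, was at 58.6 ± 1.0 FPKM while Cd79a and Ms4a1 were listed at 0. Whether other cells contributed to these levels was not tested.

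The sex chromosomes gave a check on the line. Xist, the RNA of the inactive X chromosome, was at 33.4, 33 and 34.7 FPKM, and the Y-linked genes Ddx3y, Eif2s3y, Kdm5d and Uty were listed at 0 in each library. Of 1389 genes on the Y chromosome 1386 were low.

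Promoter composition differed by level and class of gene. RefSeq promoter windows were matched for 15508 protein-coding genes (18982 windows, as some genes have several starts). The median number of CG dinucleotides per window was 5 for genes under 0.1 FPKM, 10 between 0.1 and 1 FPKM, 19 between 1 and 10 FPKM, 22 between 10 and 100 FPKM and 23 at 100 FPKM or more. The word TATAAA on either strand was in 19.0% of windows of low genes, 10.3% between 0.1 and 1 FPKM, 6.76% between 1 and 10 FPKM, 5.97% between 10 and 100 FPKM and 8.52% at 100 FPKM or more, against 12.0% of all. Windows of the pan-macrophage list held a median of 4 CG dinucleotides, those of phagocytic receptors 5 and those of pattern recognition receptors 5, although most of these genes were expressed. Windows of the proliferation list held a median of 24.5. Of the 630 genes with a window at 100 FPKM or more, 53 had a window with at most 5 CG dinucleotides.

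**Figure D5:**
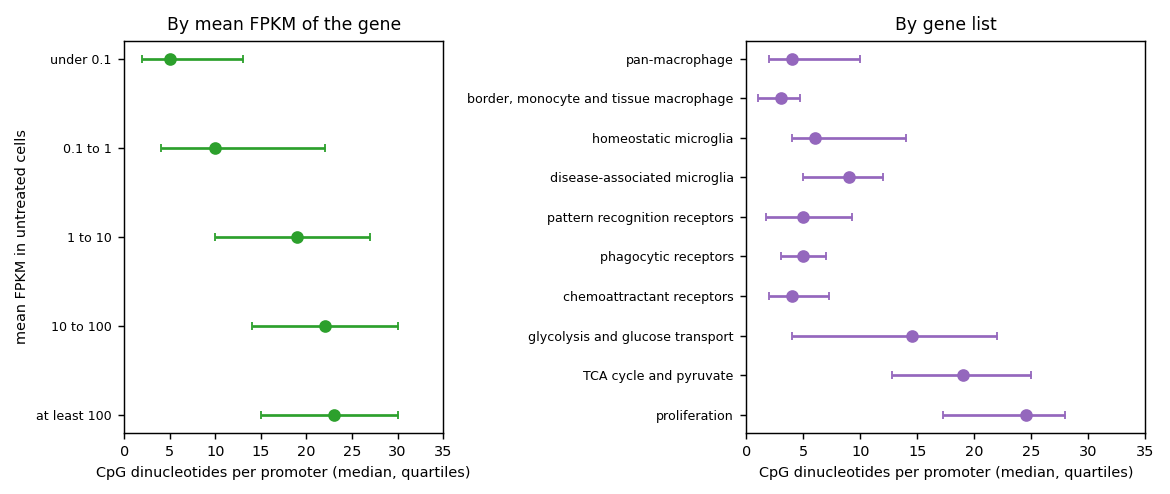
CG dinucleotides per 300-base RefSeq promoter window, as medians (points) and quartiles (lines), for protein-coding genes by mean FPKM in untreated cells (left) and by gene list (right). The median rises from 5 to 23 over the levels on the left. The microglia and macrophage lists and those of phagocytic and pattern recognition receptors lie between 3 and 9, beside 24.5 for proliferation. Not all receptor lists were this low: medians were 16.5 for cytokine and growth factor, 15 for neurotransmitter and 13 for nuclear receptors.

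The word GAGGAA (or TTCCTC) was in 27.2% of all windows and in 26.0% of those of genes at 100 FPKM or more. It was in 56.8% of the 37 windows of phagocytic receptors, 44.0% of the 25 windows of homeostatic microglia genes and 42.9% of the 21 windows of pan-macrophage genes. The share was also high in lists whose genes were mostly low, 57.7% of 26 windows for border, monocyte and tissue macrophages and 66.7% of 12 windows for neutrophils. The word CCAAT (or ATTGG) was in 73.9% of the 46 windows of proliferation genes and in 37.8% of all windows. These are matches of letters in a window and not measured binding.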

How the data were processed

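RNA of BV2 cells was sequenced in 9 libraries, and the 3 non-treated controls, grouped by their titles, are described here. Per the paper's methods the authors filtered low-quality reads, aligned with TopHat and made the deposited FPKM values with Cufflinks 2.1.1 and Ensembl release 77, correcting for fragment bias and reads that map to several places. Only the 3 control columns entered a result. The 6 treated columns were declared and left out, and no test was run. Genes were joined by identifier because 86 rows repeat a gene name, and 40036 identifiers matched GENCODE M21, which gave biotypes. Coordinates are GRCm38.

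Means, SDs and classes (at least 1 FPKM, under 0.1 FPKM) were computed with pandas 2.3.3 and numpy 2.4.6 in Python 3.11.15, and figures drawn with matplotlib 3.10.9. The class step was run on simulated libraries made from the observed means, with less noise than was seen between 0.1 and 1 FPKM. That run checks the computation only, and does not show that genes near the cut-offs are classed correctly. Genes were matched to 37 lists (975 of 996 members). Irf8, Cyba, Piezo1, Slc7a5, Cdt1, Tubb3 and the mitochondrially encoded genes had no match and are not in the counts. The genes named are the 20 highest, the 20 highest protein-coding genes that are not ribosomal, list members and the 10 most variable at a mean of at least 10 FPKM (24 genes with a 0 in a library have no such ratio and were left out), of which the text prints a part, and some list members are counted but not reported here by name. The gene families, 5 further lists and the promoter words were chosen after values were seen. The members and lists were chosen with earlier results of these data known. Near copies share at least 10% of 30-base words. Alternatives were other cut-offs and scalings, every library past the cut-off and leaving out each library.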

Additional observations from a re-analysis of the deposited data

How the results depend on the processing

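Levels are FPKM without counts, the depth behind them is approximate, and values under 0.1 FPKM rest on a few fragments. The counts of expressed genes and of expressed list members stayed within 1.5 times of 11148 and 553 under every scaling, cut-off and omission tried. Of the lists other than those of other cell types, reference genes and sex chromosomes, 2 had a count of expressed genes that moved further. At a cut-off of 2 FPKM, 2 neurotransmitter receptors and 7 chemoattractant receptors were expressed. In the small lists of other cell types, 15 alternatives moved a count of expressed or low genes by over 1.5 times, and without library 1 the count of expressed oligodendrocyte genes was 1. No paired analysis was possible because only 1 group was described.

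The count of low genes fell when a gene had to be listed at 0 in all 3 libraries. It was then 227 for all list members, 4 for homeostatic microglia, 2 for myeloid transcription factors, 2 for pattern recognition receptors, 3 for purinergic, 6 for chemoattractant and 5 for phagocytic receptors, 7 for ion channels, 8 for amino acid genes, 9 for lipid genes and 14 for secreted factors. For pattern recognition receptors it was also 2 after rescaling each library to the same sum and at a cut-off of 0.05 FPKM, and 3 with every library under 0.1 FPKM.

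The median SD between libraries over all expressed genes was 0.0803 in log2(FPKM + 1). It was 0.0870 with a pseudocount of 0.1, 0.0720 with a filter at 5 FPKM, 0 with no filter, where most genes are at 0, and between 0.0605 and 0.0750 with 1 library left out. Of the 20 highest means, 14 were also among the 20 highest medians, an alternative added after seeing the data, as was rescaling without short RNAs and pseudogenes. Without library 1, 18 remained, and without library 2, 16 remained.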

Other observations

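Genes linked to osteoclasts were counted in a list drawn up after Ctsk was seen to rank high, so it is no independent support. Of 22 genes 16 were expressed. Tcirg1, a subunit of the osteoclast proton pump, was at 293, 314 and 317 FPKM, Tnfrsf11a, the receptor RANK, at 16.3, 16.3 and 15.5 FPKM and Nfatc1, the master factor of osteoclasts, at 7.86, 9.0 and 9.13 FPKM. Acp5, the tartrate-resistant phosphatase, was at 1.99, 1.42 and 1.77 FPKM, Dcstamp and Ocstamp, needed for cell fusion, at 0.272, 0.453 and 0.715 and 0.174, 0.179 and 0.101 FPKM, and Calcr was listed at 0. Cathepsin K made up 37.3% ± 0.445 of the summed FPKM of 14 cathepsins.

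In a list of iron and metal genes, also drawn up afterwards, 12 of 13 were expressed. Tfrc, the transferrin receptor, was at 648, 653 and 679.9 FPKM, Slc11a1, the phagosomal metal transporter, at 517, 552 and 472 FPKM, Hmox1, which degrades heme, at 312, 317 and 300.1 FPKM, and Slc40a1, the iron exporter, at 12, 13 and 13 FPKM. The metallothionein genes Mt1 and Mt2 varied more, at 729, 548 and 426 and 269.6, 143 and 128 FPKM. All 19 lysosomal genes of a further list were expressed.

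Short transcripts were higher in library 1 than in library 3. Among protein-coding genes at 10 FPKM or more, the median log2 ratio of library 1 over library 3 was 0.09 for the 513 genes with a median transcript under 600 nt and -0.06 for the 894 genes over 3000 nt. Apart from 24 genes with a 0 in a library, such as the snRNA genes, the widest ratios of highest to lowest library at a mean of 10 FPKM or more were in Bach2os at 0.884, 41.8 and 1.32 FPKM, Chic2 at 3.53, 130.1 and 3.63 FPKM and Rps15a at 45.2, 38.9 and 357 FPKM. Of these, Chic2 and Rps15a are protein-coding.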
